A study of Rattus norvegicus with 8 samples.

Results

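The extracellular matrix genes of the perfused rat heart were followed in 99 genes. They include the collagen and laminin chains, the ADAMTS proteases and ADAMTS-like genes, the matrix metalloproteases and the TIMP inhibitors. A further 5 are small leucine-rich proteoglycans (Ogn, Dcn, Lum, Bgn and Fmod). The last 6 are glycoprotein and elastic fibre genes (Fn1, Postn, Sparc, Eln, Fbn1 and Lox). All 99 genes, of 14217 measured, were chosen by gene symbol. They are read by 142 of the 20826 probe sets that carry a single symbol. The groups compared were 4 hearts perfused for 2 h with 2 µM doxorubicin and 4 control hearts perfused for the same 2 h without the drug. Doxorubicin, a cancer drug of the anthracycline class, inserts into DNA, traps topoisomerase II on it and is known to harm the heart. All 8 hearts came from male Wistar rats of about 300 g, an outbred stock, and their ages were not given in the sources used here. A Langendorff apparatus drives fluid backwards through the aorta into the coronary arteries of a heart removed from the body, here without recirculation, so no blood cells arrived from the body during the perfusion. Each heart was read on its own Affymetrix array, and the labels number the 4 hearts of each group as biological replicates.

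The matrix of the heart is laid down mainly by fibroblasts, with basement membranes added by muscle and vessel cells. Fibrillar collagens, chiefly types I and III, bear load between the muscle bundles, and small leucine-rich proteoglycans sit on the fibrils and set how they assemble. Laminins and type IV collagen form the sheet around each muscle cell and capillary. ADAMTS enzymes cut proteoglycans such as versican and aggrecan, matrix metalloproteases cut collagens and other matrix proteins, and TIMP proteins block both families to different degrees. Fibrosis is a known late feature of anthracycline damage to the heart.

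Of the 99 genes 3 differed at a limma adjusted p under 0.05, namely the protease gene Adamts9, the proteoglycan gene Ogn and the collagen-binding glycoprotein gene Sparc. Their promoters are shown as the sequences of the 3 called genes. No link between these sequences and the differences was tested. Each window runs from 250 bases before to 50 bases after the gene start in RefSeq on the GRCr8 assembly, on the gene's own strand, and covers chr4:127019827-127020126 (minus strand) for Adamts9, chr10:40038767-40039066 (minus strand) for Sparc and chr17:15258946-15259245 (minus strand) for Ogn. Capitals mark matches to the motifs searched.
Adamts9: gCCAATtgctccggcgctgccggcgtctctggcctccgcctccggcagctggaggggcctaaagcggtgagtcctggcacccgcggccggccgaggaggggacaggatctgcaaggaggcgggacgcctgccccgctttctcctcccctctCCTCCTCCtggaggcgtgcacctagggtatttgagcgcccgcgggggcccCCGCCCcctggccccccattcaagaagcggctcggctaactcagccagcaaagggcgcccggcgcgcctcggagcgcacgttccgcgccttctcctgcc
Sparc: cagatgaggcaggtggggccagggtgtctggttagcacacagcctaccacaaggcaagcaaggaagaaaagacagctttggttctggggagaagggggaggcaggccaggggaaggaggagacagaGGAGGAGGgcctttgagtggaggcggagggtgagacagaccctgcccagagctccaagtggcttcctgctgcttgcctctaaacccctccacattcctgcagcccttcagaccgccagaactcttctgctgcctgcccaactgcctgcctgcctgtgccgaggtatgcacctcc
Ogn: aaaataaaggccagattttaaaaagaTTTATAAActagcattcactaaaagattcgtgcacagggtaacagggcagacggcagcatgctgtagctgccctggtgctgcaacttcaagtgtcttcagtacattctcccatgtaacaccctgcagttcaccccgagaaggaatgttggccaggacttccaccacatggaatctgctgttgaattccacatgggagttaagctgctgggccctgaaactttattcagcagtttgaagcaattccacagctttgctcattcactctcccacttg
The 7 motifs searched, as exact letters on both strands, were the TATA box TATAAA, the GC box GGGCGG, the CCAAT box, the AP-1 motif TGANTCA, the cyclic AMP response element TGACGTCA, the NF-kB motif and a GGA box GGAGGAGG. Counting back from the base before the gene start as -1, and giving the first base of each match, the Adamts9 promoter held a CCAAT box at -249, a GGA box on the other strand at -99 and a GC box on the other strand at -49. The Sparc promoter held a GGA box at -124. The Ogn window held TATAAA at -222 and, overlapping it, at -224 on the other strand. None of the 3 windows held the AP-1, cyclic AMP response or NF-kB letters, which says nothing of the factors themselves. Of all 33469 promoter windows of this length in the table, 14.2% held the TATA box, 33.1% the GC box, 37.5% the CCAAT box, 7.33% the AP-1 motif, 1.83% the cyclic AMP response element, 0.361% the NF-kB motif and 8.39% the GGA box. Windows were found for 73 of the 99 genes, of which 23.3% held the TATA box, 52.1% the GC box, 28.8% the CCAAT box, 9.59% the AP-1 motif, 2.74% the cyclic AMP response element, none the NF-kB motif and 12.3% the GGA box, as a description with no test.

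The comparison of doxorubicin with control hearts asks which matrix genes differ after this short exposure. Values are log2 of the deposited intensities, differences are doxorubicin minus control, and each gene stands on its probe set of highest mean unless another is named. Of the 99 genes, 2 rose (Ogn and Sparc, 2.02%) and 1 fell (Adamts9, 1.01%), while 96 did not pass the adjusted threshold. Over all 14217 genes, 0.802% rose and 2.17% fell, so the shares of the matrix genes lie within a few genes of the background in either direction. The background itself moved with single hearts: between 44 and 215 genes rose when 1 heart was left out, against 114 with all 8, and between 204 and 305 fell, against 308. Of the 142 member probe sets 5 (3.52%) passed, against 2.21% of all 31042 probe sets. At an unadjusted p under 0.05, 8 matrix genes were higher and 3 lower (8.08% and 3.03%), beside 9.67% and 7.07% of all genes. The same shares of all genes stand beside the counts of each smaller group of matrix genes below. The groups did not overlap for 3 higher genes (Ogn, Sparc and Col4a1) and 3 lower ones (Adamts9, Adamts4 and Col6a5), which is 3.03% in each direction, beside 5.75% and 4.69% of all genes. The median difference was 0.03 for the 99 genes and 0.0063 for all genes, and 58 of the 99 differences were above 0 (58.6%, against 51.9% of all genes).

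For most genes the interval of the difference was narrow. The 95% interval of the difference lay within 1.5-fold in either direction for 78 of the 99 genes and within 2-fold for 90. Among all genes this held for 13014 and 13909 of 14217, a larger share at each limit than among the matrix genes. The mean level of 20 of the 99 genes was in the dimmest 25% of probe sets (under 4.16 log2), among them 9 collagens outside the fibrillar and basement membrane groups and 8 matrix metalloproteases, and for these a narrow interval may only show that the probe set reads near background. The remaining 79 genes include all 3 that were called.

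**Figure D1:**
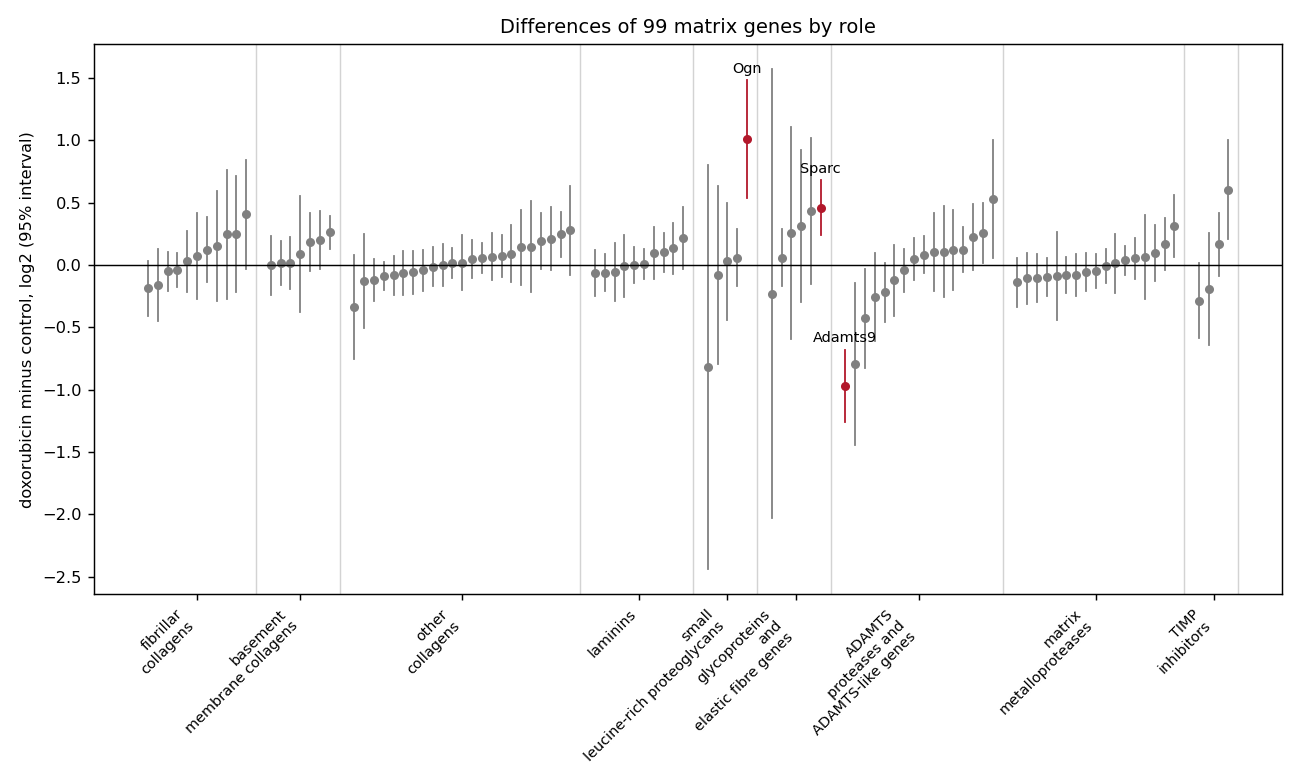
Log2 differences, doxorubicin minus control, of the 99 matrix genes in 9 roles, each point a gene on its probe set of highest mean and each line its 95% interval from limma. Adamts9 (-0.97), Ogn (1.01) and Sparc (0.46), in red, are the genes with an adjusted p under 0.05, and the 41 collagens lie between -0.34 and 0.40.

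ADAMTS proteases held the largest fall among the matrix genes. Adamts9 encodes a secreted protease that cuts versican and aggrecan, and in hearts with doxorubicin its levels were 6.26, 6.36, 5.86 and 6.54 log2, against 7.07, 7.30, 7.24 and 7.28 log2 in control hearts. Every doxorubicin heart lay below every control heart, with more spread among the doxorubicin hearts. The group means were 6.25 ± 0.29 log2 with doxorubicin and 7.22 ± 0.10 log2 in control hearts (SD, n = 4 each), a difference of -0.97 (SE 0.13, 95% interval -1.26 to -0.68), or a level 1.96-fold lower, with a limma adjusted p of 0.00391. The gene was still called without any 1 of the 8 hearts, at adjusted p from 0.00258 to 0.0180, and lost its call in 1 of 22 alternatives, with the hybridization control level of the arrays as a covariate (adjusted p = 0.255). Its second probe set, 1394518_at, was dimmer, at 4.61 ± 0.18 log2 with doxorubicin and 4.77 ± 0.12 log2 in control hearts, and differed by -0.15 (limma adjusted p = 0.566). The mean of both probe sets differed by -0.56 (limma adjusted p = 0.00317), so the size of the fall depends on the probe set read.

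Adamts4, an aggrecan-cutting enzyme, was at 7.20, 7.40, 6.08 and 7.39 log2 with doxorubicin and at 8.26, 7.96, 7.61 and 7.44 log2 in control hearts. The groups did not overlap, though the gap between the highest doxorubicin heart and the lowest control heart was small and doxorubicin heart 3 lay far below the others. The difference was -0.80 (SE 0.29, 95% interval -1.45 to -0.15) and did not pass the adjusted threshold (limma adjusted p = 0.251). Adamts1, which cuts versican, was at 9.43, 9.67, 8.78 and 9.51 log2 with doxorubicin and at 9.71, 10.05, 9.63 and 9.72 log2 in control hearts, with 1 doxorubicin heart inside the control range. It differed by -0.43 (SE 0.18, limma adjusted p = 0.319). Adamts5, another aggrecan-cutting enzyme, was at 6.80, 6.93, 6.70 and 6.90 log2 with doxorubicin and 5.59, 6.75, 6.57 and 6.29 log2 in control hearts. It differed by 0.53 (SE 0.21, limma adjusted p = 0.300), with control heart 1 the lowest, while its dimmer second probe set differed by 0.03. Of the 16 ADAMTS and ADAMTS-like genes 1 fell and none rose at the adjusted threshold, beside 2.17% and 0.802% of all genes. Their median difference was 0.06, with 9 above 0 and 7 below, and the other named members were Adamts12 (-0.26), Adamtsl4 (0.12) and Adamtsl5 (0.26), of which none passed. No direction was shared by the 16 genes.

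**Figure D2:**
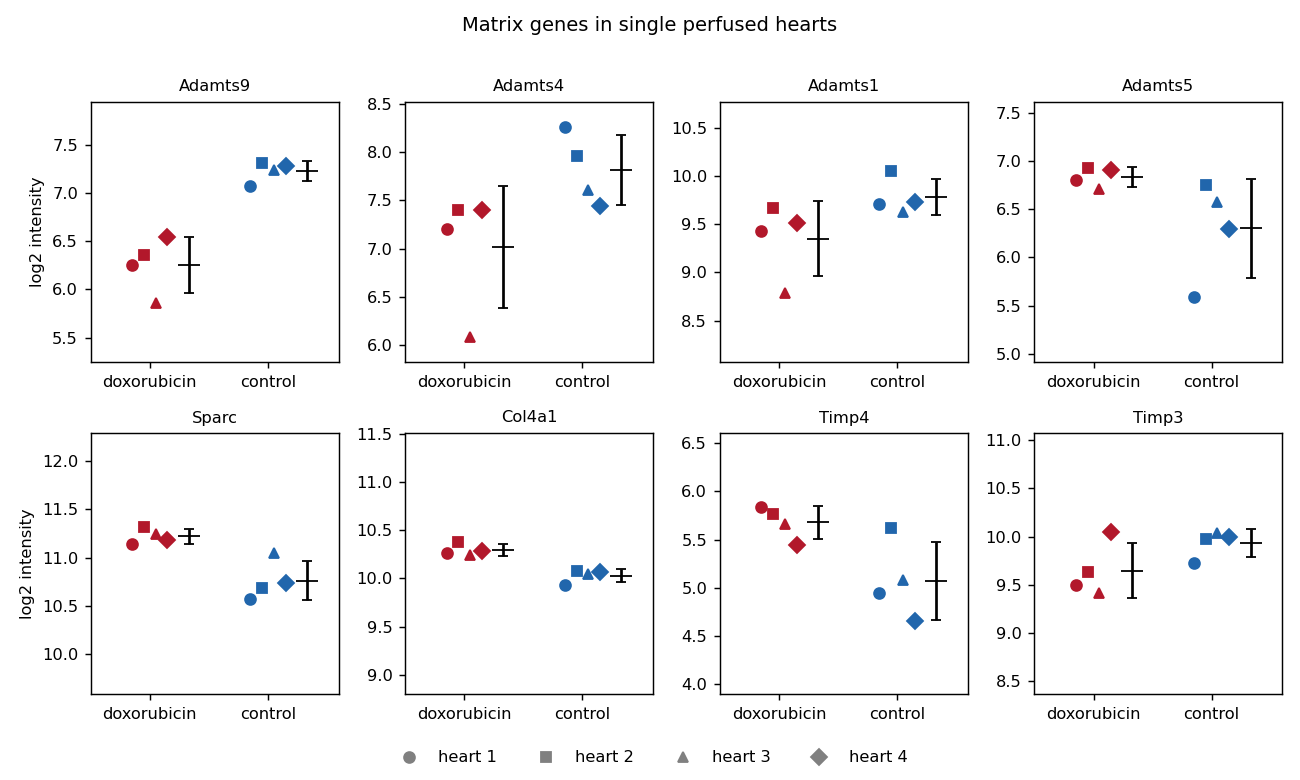
Log2 intensity of 8 matrix genes in single hearts, doxorubicin left and control right in each panel, with the group mean and SD beside the points and a vertical span of equal height in all panels. The Adamts9 and Sparc groups do not overlap, while for Timp3 and Adamts5 hearts of both groups share part of the range.

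Among the small leucine-rich proteoglycans, Ogn rose and the other 4 were not called. Ogn encodes osteoglycin, or mimecan, which binds collagen fibrils. On probe set 1376749_at it was at 11.04, 11.13, 10.88 and 10.84 log2 with doxorubicin and at 9.82, 10.45, 10.27 and 9.31 log2 in control hearts. Every doxorubicin heart lay above every control heart, and the control hearts were the more scattered. The difference was 1.01 (SE 0.21, 95% interval 0.54 to 1.48), or 2.01-fold, at a limma adjusted p of 0.0407. That call was lost without any 1 of the 4 doxorubicin hearts, without control heart 1 and without control heart 3 (adjusted p 0.0576 to 0.127), and was kept without control heart 2 or control heart 4. The difference stayed between 0.79 and 1.17 in all 8 of these fits. In a bulk sample such as these hearts, more cells of a type and more RNA per cell cannot be told apart, for this gene and for those below.

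The 4 Ogn probe sets did not move together. On 1383263_at the levels were 10.18, 10.14, 10.13 and 9.99 log2 with doxorubicin and 9.03, 9.46, 9.38 and 8.20 log2 in control hearts, a difference of 1.09 (SE 0.23, limma adjusted p = 0.0441), again with no overlap. On 1385248_a_at they were 9.56, 9.44, 9.17 and 10.35 log2 with doxorubicin and 9.51, 9.96, 9.98 and 10.37 log2 in control hearts, a difference of -0.33 (SE 0.25, limma adjusted p = 0.657). On 1390450_a_at the means were 8.29 ± 0.30 log2 with doxorubicin and 8.18 ± 0.33 log2 in control hearts (SD, n = 4 each), a difference of 0.11 (limma adjusted p = 0.872). The first pair of probe sets was higher in every doxorubicin heart, and the second pair, whose suffix marks probes shared by alternative transcripts of a gene, overlapped between the groups. A contrast within each heart, chosen after these values were seen, took 1376749_at minus 1385248_a_at, which was 1.34 ± 0.58 log2 with doxorubicin and 0.0049 ± 0.72 log2 in control hearts (SD, n = 4 each). The change of 1.34 had an exact permutation p of 0.0286 (two-sided, the smallest that 4 against 4 allows, adjusted p = 0.0429 over 3 contrasts). Against 1390450_a_at the change was 0.90 (exact permutation p = 0.0286, adjusted p = 0.0429), and against 1383263_at it was -0.08 (exact permutation p = 0.343). Because the split between the probe sets had already been seen, these p-values are a description and no independent evidence of it. The mean of all 4 probe sets differed by 0.47 (limma adjusted p = 0.134), so the call for Ogn rests on a pair of its probe sets. Which transcripts each probe set reads is not given in the sources used here.

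**Figure D3:**
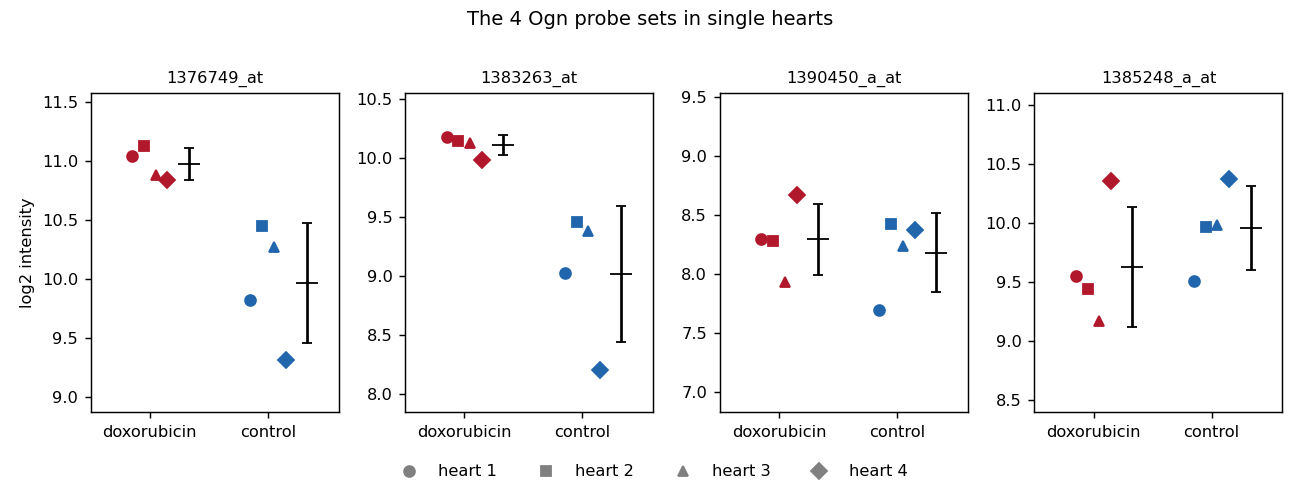
Log2 intensity of the 4 Ogn probe sets in single hearts, doxorubicin left and control right in each panel, with mean and SD, on vertical spans of equal height. The groups are apart on 1376749_at and 1383263_at, by 1.01 and 1.09, and overlap on 1390450_a_at and 1385248_a_at, which differ by 0.11 and -0.33.

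The intervals of the other 4 proteoglycans differed widely in width. Decorin (Dcn), which binds collagen and TGF-beta, was at 12.52 ± 0.09 log2 with doxorubicin and 12.47 ± 0.21 log2 in control hearts (SD, n = 4 each), a difference of 0.06 with a 95% interval of -0.17 to 0.29. Lumican (Lum), a fibril-spacing proteoglycan, differed by 0.03 (95% interval -0.44 to 0.50). Biglycan (Bgn) differed by -0.08 (95% interval -0.79 to 0.63). Fibromodulin (Fmod), which steers fibril growth, was at 6.03, 5.71, 5.65 and 7.60 log2 with doxorubicin and at 5.67, 8.15, 8.71 and 5.74 log2 in control hearts. Its difference of -0.82 (SE 0.72, 95% interval -2.44 to 0.80) rests on 1 high doxorubicin heart and 2 high control hearts, and allows a change of either sign.

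Of the glycoprotein and elastic fibre genes, Sparc rose and the other 5 were not called. Sparc encodes a secreted protein that binds collagen and is needed for its assembly into fibrils. Its levels were 11.14, 11.32, 11.25 and 11.18 log2 with doxorubicin, against 10.57, 10.68, 11.05 and 10.74 log2 in control hearts. All doxorubicin hearts lay above all control hearts, with control heart 3 closest to them. The difference was 0.46 (SE 0.10, 95% interval 0.24 to 0.68), or 1.37-fold, at a limma adjusted p of 0.0456, close to the threshold. The call was lost without any 1 heart other than control heart 3 (adjusted p 0.0793 to 0.128), and without that heart it was 0.00748. Its second probe set, 1367562_at, differed by 0.29 (SE 0.15, limma adjusted p = 0.472), with levels of 10.15, 10.38, 9.98 and 10.34 log2 with doxorubicin and 9.52, 10.30, 9.99 and 9.88 log2 in control hearts. Those groups overlapped.

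Lox encodes lysyl oxidase, which cross-links collagen and elastin. It was at 6.97, 6.84, 7.09 and 7.17 log2 with doxorubicin and at 5.83, 7.005, 7.21 and 6.29 log2 in control hearts, a difference of 0.43 (SE 0.26, limma adjusted p = 0.547). Control hearts 1 and 4 were low, and the doxorubicin hearts sat inside the control range. On its second probe set, 1368172_a_at, the difference was 0.64 (SE 0.20, limma adjusted p = 0.176) and the groups did not overlap. The elastin gene Eln differed by 0.06 (SE 0.10, limma adjusted p = 0.885). Its second probe set, 1395753_at, was lower without overlap, by -0.23 (SE 0.06, limma adjusted p = 0.104), so its probe sets differed in sign. Fibrillin 1 (Fbn1), the main microfibril protein, differed by 0.31 (95% interval -0.30 to 0.92), and fibronectin (Fn1), an integrin-binding scaffold protein, by 0.26 (95% interval -0.59 to 1.11). Periostin (Postn), a glycoprotein of activated fibroblasts, was at 5.66, 5.31, 5.86 and 7.99 log2 with doxorubicin and at 4.93, 7.72, 7.99 and 5.10 log2 in control hearts. As with Fmod, doxorubicin heart 4 and control hearts 2 and 3 were high, and the difference of -0.23 (95% interval -2.03 to 1.57) was not distinguishable from 0.

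None of the 41 collagen genes passed the adjusted threshold. Their differences ran from -0.34 to 0.40 with a median of 0.05, 26 were above 0, and the 95% interval lay within 1.5-fold for 35 and within 2-fold for all 41. At an unadjusted p under 0.05, 2 were higher (Col4a1 and Col6a1) and none lower. Of all genes 0.802% rose and 2.17% fell at the adjusted threshold, and 9.67% and 7.07% did at the unadjusted one. At those shares few adjusted calls are expected among 41 genes.

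Among the 11 fibrillar collagens the median difference was 0.07. Col3a1, the chain of type III collagen, was at 11.84, 11.82, 11.85 and 12.31 log2 with doxorubicin and at 11.00, 11.74, 11.98 and 11.48 log2 in control hearts. The groups overlapped, doxorubicin heart 4 being the highest of all 8 and control heart 1 the lowest, and the difference was 0.40 (SE 0.20, 95% interval -0.03 to 0.84, limma adjusted p = 0.414). The type I chains had the same highest and lowest heart. Col1a2 differed by 0.25 (95% interval -0.22 to 0.71) and Col1a1 by 0.25 (95% interval -0.27 to 0.76). Col5a2, a chain of the type V collagen that regulates fibril width, differed by 0.15, and the minor fibrillar chains Col24a1 and Col27a1 by -0.19 and -0.16. No interval among the 11 reached beyond 2-fold.

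The 7 basement membrane collagens had a median difference of 0.09, and 6 were above 0. Col4a1, a chain of the main type IV network, was at 10.26, 10.38, 10.24 and 10.29 log2 with doxorubicin and at 9.93, 10.08, 10.05 and 10.07 log2 in control hearts. The groups were narrow and did not overlap. The difference was 0.26 (SE 0.06, 95% interval 0.13 to 0.40), or 1.20-fold, at a limma adjusted p of 0.0604, just outside the threshold. Of the 22 alternatives 3 put it inside, with arrays centred on the median (0.0492), with array weights (0.0467) and with log2(value + 16) (0.0293). The other 19 did not, including all 8 fits without 1 heart (0.0622 to 0.158), the mean of its probe sets (0.145) and the hybridization control covariate (0.736). Its second probe set, 1372439_at, differed by 0.17 (SE 0.08). Col4a2, which pairs with Col4a1 in the same triple helix, differed by 0.18 (95% interval -0.05 to 0.42), Col15a1, of the outer basement membrane zone, by 0.20 (95% interval -0.03 to 0.44), and Col4a5 by 0.09 (95% interval -0.38 to 0.55).

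Of the 23 other collagens none was called, with a median difference of 0.02. The type VI chains, which form beaded filaments next to cells, were measured on several probe sets. Col6a1 was at 9.23, 9.13, 9.21 and 9.34 log2 with doxorubicin and 8.84, 8.99, 9.17 and 8.94 log2 in control hearts, a difference of 0.24 (SE 0.08, limma adjusted p = 0.193), with only control heart 3 reaching the doxorubicin range. Col6a2 differed by 0.19 (SE 0.10) and Col6a3, on its brightest probe set, by 0.21 (SE 0.11, limma adjusted p = 0.478). A dimmer Col6a3 probe set, 1396055_at, was at 6.25, 6.35, 6.13 and 6.08 log2 with doxorubicin and 5.73, 5.77, 5.90 and 5.53 log2 in control hearts, without overlap, and passed with a difference of 0.47 (SE 0.09, limma adjusted p = 0.0291). That call held in 3 of the 8 fits without 1 heart, with adjusted p up to 0.102. Col6a5 was at 4.14, 4.07, 4.13 and 4.12 log2 with doxorubicin and 4.24, 4.17, 4.23 and 4.17 log2 in control hearts, a difference of -0.09 at a level near background. Col14a1, which sits on the surface of fibrils, differed by 0.15, and Col8a2, a short-chain collagen, by -0.34 (95% interval -0.75 to 0.08).

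The 10 laminin genes differed little. Their differences ran from -0.06 to 0.22, the median was 0.0045, no gene was called at the adjusted or the unadjusted threshold, and the 95% interval lay within 1.5-fold for all 10. Lama2, the main alpha chain around muscle fibres, was at 10.05 ± 0.13 log2 with doxorubicin and 9.92 ± 0.16 log2 in control hearts (SD, n = 4 each), a difference of 0.13 (95% interval -0.07 to 0.34). Lama4, the alpha chain of vessel walls, differed by 0.10 and Lamb1 by 0.22 (95% interval -0.03 to 0.47). Lamc1, the gamma chain shared by most laminins, differed by 0.10 and Lamb2 by 0.00071 (95% interval -0.15 to 0.15).

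None of the 17 matrix metalloproteases passed the adjusted threshold either, with a median difference of -0.05 and all 17 intervals within 1.5-fold. Mmp2, a gelatinase, differed by 0.06 (95% interval -0.27 to 0.40), and Mmp14, the membrane-bound enzyme that activates it, by -0.09 (95% interval -0.44 to 0.27). Among the other membrane-type enzymes, Mmp15, Mmp16 and Mmp24 differed by 0.17, -0.10 and 0.10, with Mmp16 in the dimmest 25%. Mmp12, the macrophage elastase, was at 4.15 ± 0.04 log2 with doxorubicin and 4.29 ± 0.18 log2 in control hearts (SD, n = 4 each), near background. Mmp23 had an unadjusted p under 0.05, with levels of 6.19, 6.26, 6.53 and 6.63 log2 with doxorubicin and 5.98, 6.01, 6.08 and 6.29 log2 in control hearts. It differed by 0.31 (SE 0.11, limma adjusted p = 0.231) with overlap, and its other 2 probe sets differed by -0.07 and -0.04. Of the 17 genes 8 were in the dimmest 25%, so small intervals there say little.

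The 4 TIMP inhibitors differed in both directions and none was called. Timp4, the family member known for its expression in the heart, was at 5.84, 5.76, 5.67 and 5.45 log2 with doxorubicin and at 4.94, 5.62, 5.08 and 4.66 log2 in control hearts. Control heart 2 alone reached the doxorubicin range. The difference was 0.60 (SE 0.18, 95% interval 0.20 to 1.002, limma adjusted p = 0.144), and without control heart 2 it was 0.78 (limma adjusted p = 0.0121). Leaving out the overlapping heart separates the groups by construction. Timp4 was called in only 1 of the 8 fits without 1 heart, with limma adjusted p up to 0.342. Timp3, which binds the matrix and also blocks ADAMTS enzymes, was at 9.49, 9.63, 9.42 and 10.05 log2 with doxorubicin and at 9.73, 9.98, 10.04 and 9.99 log2 in control hearts. Doxorubicin heart 4 was above all control hearts and the other 3 were below them. The difference was -0.29 (SE 0.13, limma adjusted p = 0.394), and its 4 probe sets ranged from -0.29 to -0.45, all below 0. Timp1, an inducible inhibitor, differed by -0.19 (95% interval -0.64 to 0.25) and Timp2 by 0.17 (95% interval -0.09 to 0.42).

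Spread between hearts of a group was wide for several matrix genes. Over genes above the dimmest 25%, the SD between hearts of a group, pooled over both groups, had a median of 0.180 log2 for 79 matrix genes and 0.131 log2 for all 12201 such genes, which is a description with no test. The most variable members were Postn (1.44), Fmod (1.30), Fn1 (0.677) and Bgn (0.565). Doxorubicin heart 4 was the highest of its group in 47 of the 99 genes (47.5%, against 23.5% of all genes), and control heart 1 the lowest of its group in 48 (48.5%, against 28.2%). Control heart 3 was the lowest of its group in 8 (8.08%, against 21.8% of all genes). The mean log2 level of 5 atrial markers also varied widely, at 10.15, 9.56, 8.03 and 11.74 with doxorubicin and 7.32, 10.94, 10.15 and 8.02 in control hearts. Doxorubicin heart 4 and control hearts 2 and 3 were again high, as for Fmod and Postn, and control hearts 1 and 4 low. Fibroblast markers had the same high and low hearts, with summed linear intensities of 16348, 15911, 15060 and 18013 with doxorubicin and 12806, 15764, 16603 and 13218 in control hearts. So had smooth muscle and pericyte markers, summed to 3218, 3144, 3102 and 3762 with doxorubicin and 2844, 3510, 3731 and 2736 in control hearts. Markers of these cell types were thus high or low in the same hearts. The macrophage, fat and Schwann cell markers were also highest in doxorubicin heart 4 within its group, at mean levels of 6.69, 7.73 and 5.65 log2. Among control hearts the macrophage and fat markers were lowest in control heart 4, at 6.19 and 5.46 log2. Endothelial and cardiomyocyte markers were instead lowest of the group in doxorubicin heart 4, with summed linear intensities of 4240 and 103511. The control hearts gave no such opposite order throughout. Their cardiomyocyte markers were lowest in control heart 1 (103349), and their endothelial markers highest in control heart 3 (4985) and lowest in control heart 2 (4607). In a fit with the atrial level as a covariate, added after the data were seen, Fmod differed by -1.37 (limma adjusted p = 0.0743), Postn by -0.82 (limma adjusted p = 0.436), Adamts9 by -1.05 (limma adjusted p = 0.000624), Ogn by 0.91 (limma adjusted p = 0.0361) and Sparc by 0.44 (limma adjusted p = 0.0574). The part of atrial, fibroblast or other cells in the variation between hearts was not tested.

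**Figure D4:**
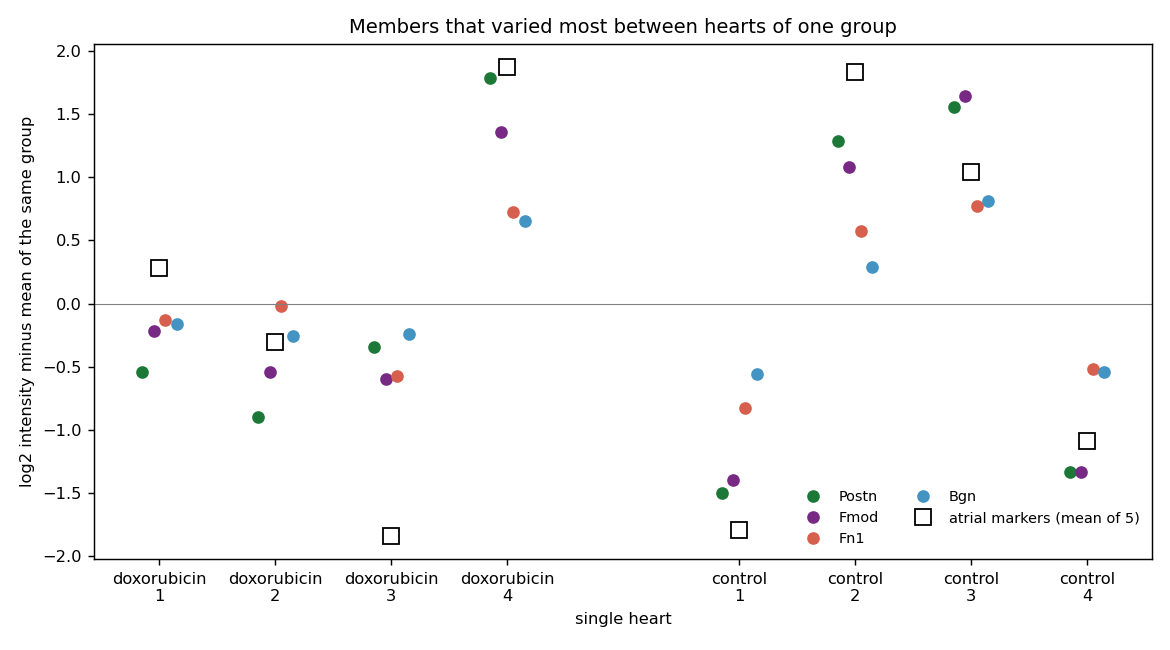
Log2 level minus the mean of the same group for the 4 most variable matrix genes (filled circles) and the mean of 5 atrial markers (open squares), for each heart with doxorubicin (left) and control (right). Doxorubicin heart 4 is the highest of its group for all 4 genes and for the atrial markers, which reach 11.74 log2 there.

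Markers of the cells that make or carry the matrix were read beside these genes. The lists were chosen with earlier results of these data known and are described by counts. Beside these counts stand the 0.802% of all genes that rose and the 2.17% that fell. The heart muscle markers Myh6, Tnnt2 and Tnni3 averaged 14.10, 13.999 and 13.73 log2 with doxorubicin and 14.04, 13.97 and 13.82 log2 in control hearts, and none of 9 cardiomyocyte markers was called. None of 15 fibroblast markers was called, with a median difference of 0.09, and their summed linear intensities ran from 15060 to 18013 with doxorubicin and from 12806 to 16603 in control hearts (exact permutation p = 0.229, adjusted p = 0.900 over 14 array and marker measures). Among 12 endothelial markers the receptor gene Tie1 rose by 0.34 (SE 0.06, limma adjusted p = 0.0148) and the transcription factor gene Erg fell by 0.60 (SE 0.12, limma adjusted p = 0.0322). Tie1 was no longer called without doxorubicin heart 1, 2 or 3 (adjusted p up to 0.0576), and Erg was called only without doxorubicin heart 2 or control heart 1 among the 8 fits (adjusted p up to 0.0965). No gene was called among 11 smooth muscle and pericyte, 5 atrial, 12 macrophage, 6 neutrophil, 7 fat, 7 mesothelial and 5 Schwann cell markers. The summed levels ran for atrial markers from 2727 to 21794 with doxorubicin and from 2283 to 11866 in control hearts, and for fat markers from 2702 to 4962 with doxorubicin and from 2608 to 3076 in control hearts. The neutrophil marker S100a8 read 3.63 log2 with doxorubicin and 3.64 log2 in control hearts, in the dimmest 25%. The part of these cells in the matrix results was not tested.

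The hybridization control level, a mean of 18 probe sets that read transcripts added to the labelled sample, was 10.02 ± 0.08 log2 with doxorubicin and 10.32 ± 0.17 log2 in control arrays (SD, n = 4 each). The arrays of the groups did not overlap (exact permutation p = 0.0286, as small as 4 against 4 allows, and 0.4 once adjusted over 14 measures), so this level and the drug cannot be told apart. With it as a covariate none of the 99 genes was called, Adamts9 differing by -0.97 (limma adjusted p = 0.255), Ogn by 1.31 (limma adjusted p = 0.347) and Sparc by 0.69 (limma adjusted p = 0.166), and 3 genes rose and 57 fell among all genes. For the GAPDH control, 3′ minus 5′ probe sets gave 0.18 ± 0.01 log2 with doxorubicin and 0.19 ± 0.07 log2 in control arrays (SD, n = 4 each; exact permutation p = 0.8). Pairs of arrays correlated at 0.988 to 0.996 across probe sets within a group and 0.985 to 0.993 between groups, and none of 28 pairs held identical values.

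**Figure D5:**
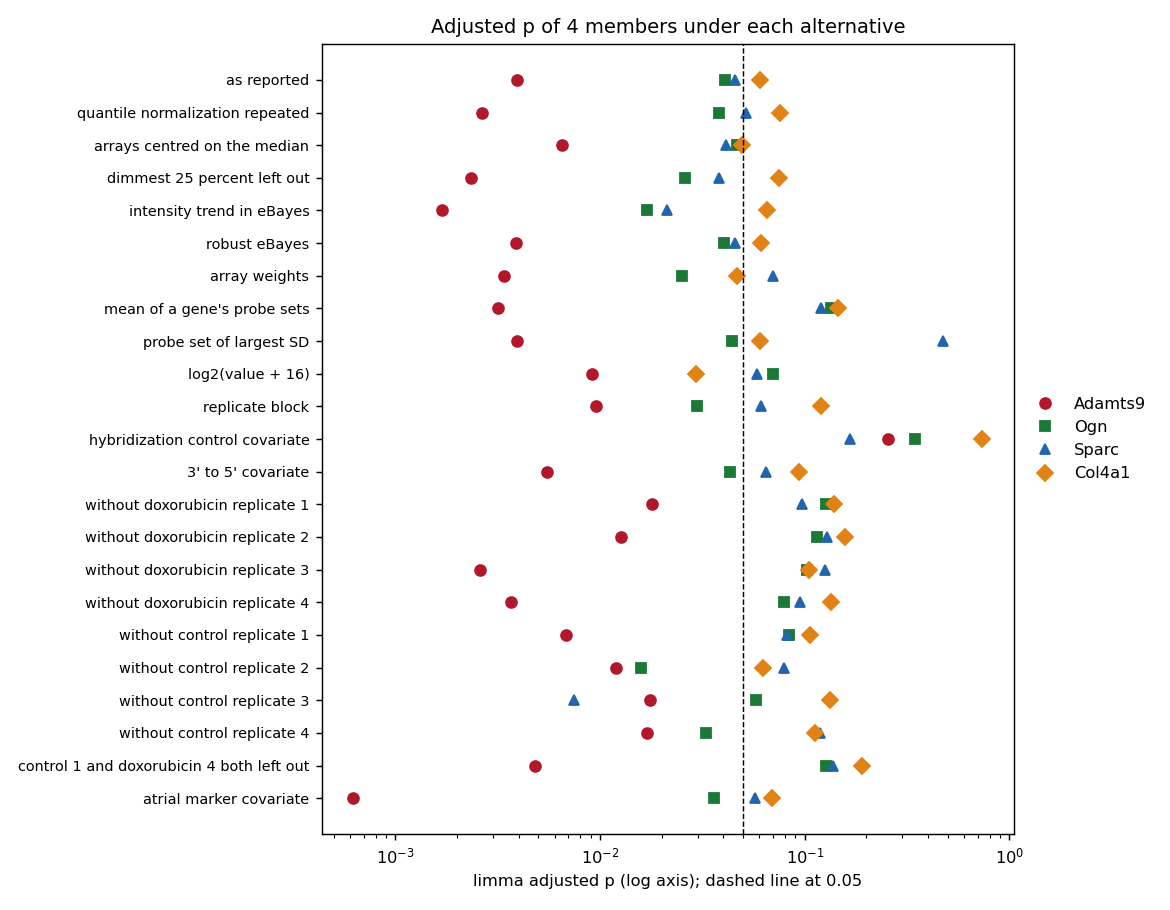
Limma adjusted p (log axis) of Adamts9, Ogn, Sparc and Col4a1 as reported and under each of 22 alternatives, with a dashed line at 0.05. Adamts9 passes the line only with the hybridization control covariate (0.255), while Sparc lies to its right in 17 and Ogn in 10 of the 22.

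Other genes of matrix handling gave few calls. Beside each list stand the values over all 14217 genes, of which 0.802% rose and 2.17% fell, with 6842 differences below 0 and a median of 0.0063. None of 23 genes of collagen processing and cross-linking was called (median difference 0.06). Their smallest p-values belonged to Ppib, a prolyl isomerase of the collagen-folding machinery, with 0.18 (limma adjusted p = 0.248), and P3h4, of the collagen hydroxylation machinery, with 0.15. None of 48 other matrix glycoproteins and proteoglycans was called (median -0.01), with vitronectin (Vtn) at 0.27 and Smoc2, a calcium-binding matrix protein, at 0.50.

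Among 24 other matrix proteases and inhibitors 1 rose and none fell. Fap encodes fibroblast activation protein, a membrane serine protease. It was at 5.82, 5.74, 5.65 and 5.91 log2 with doxorubicin and at 5.13, 5.002, 5.51 and 5.26 log2 in control hearts, without overlap. The difference was 0.55 (SE 0.11, limma adjusted p = 0.0282), and the call held without control heart 2 or control heart 3 and was lost without any other heart (adjusted p up to 0.0960). The metalloprotease gene Adam19 differed by -0.52 (SE 0.12, limma adjusted p = 0.0543).

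Of 22 matrix receptors 1 fell. Cd44, the hyaluronan receptor, was at 7.30, 7.06, 7.17 and 7.43 log2 with doxorubicin and at 7.72, 7.65, 7.60 and 7.68 log2 in control hearts. Those groups did not overlap, and the difference was -0.42 (SE 0.08, limma adjusted p = 0.0285). The call was kept without doxorubicin heart 4 or control heart 2 and lost without any other heart (adjusted p up to 0.0949). The integrin gene Itgb5 differed by 0.30 (limma adjusted p = 0.129).

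The list of 20 TGF-beta ligands, receptors and targets had 2 genes that fell and 1 that rose, and 18 of its 20 differences were below 0 (median -0.19), beside 6842 of 14217 among all genes. The list was chosen with earlier results known, so this count is a description and no independent evidence of a direction. Ccn2 encodes connective tissue growth factor, a matricellular protein and TGF-beta target. It was at 9.61, 9.51, 9.41 and 9.67 log2 with doxorubicin and at 10.74, 10.77, 10.98 and 10.84 log2 in control hearts, far apart. The difference was -1.28 (SE 0.08, limma adjusted p = 3.57e-05), and it was called under all 22 alternatives. Smurf1, a ubiquitin ligase that acts on SMAD proteins, fell by 0.37 (SE 0.07, limma adjusted p = 0.0213), and lost its call without doxorubicin heart 1 (0.0784) or 3 (0.0686). Bambi, a decoy receptor of the pathway, rose by 0.40 (SE 0.08, limma adjusted p = 0.0420) and kept its call without control heart 4 and under no other fit without 1 heart (adjusted p up to 0.116). The collagen targets of this pathway, Col1a1, Col1a2 and Col3a1, were not called. Over the 22 alternatives the calls were lost in 6 for Smurf1, 13 for Bambi, 9 for Fap, 10 for Cd44, 6 for Tie1 and 11 for Erg.

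Probe sets of a gene gave different values in places. Of the 99 genes 66 were read by 1 probe set and 33 by 2 to 4. Among the 33, 9 had differences of both signs and 3 had a range over 0.5 log2 (Ogn, Adamts9 and Adamts5). Both called and uncalled probe sets were held by 4 (Ogn, Adamts9, Sparc and Col6a3). The differences of both signs were large for Ogn (-0.33 to 1.09) but lay near 0 for others, such as Mmp2 (-0.07 and 0.06). Near 0, opposite signs need not be a disagreement. These counts were not made over all genes, so they say nothing particular to the matrix genes.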

How the data were processed

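RNA of 8 rat hearts was labelled with biotin and hybridized to Affymetrix arrays. The deposited intensity of each probe set was computed by the authors with RMA, per the submitters' processing notes, and is on a linear scale (array medians 29.9 to 31.0). The sources used here do not give the software. Because RMA equalizes the arrays, a shift common to most transcripts is removed. Log2 of the deposited intensity was taken with no offset. Of 31099 probe sets, 57 controls were left out; 20826 had 1 symbol, 436 several and 9780 none. Symbols came from the platform annotation and RefSeq (GRCr8, which held the gene ID of 20758 and of all 142 member probe sets). Doxorubicin (n = 4) was compared with control (n = 4) by limma 3.58.1 in R 4.3.3 (lmFit, eBayes, no covariate), two-sided, with Benjamini-Hochberg adjustment over 31042 probe sets and a threshold of 0.05. The labels number the hearts but do not say that equal numbers pair them, so the fit was unpaired. Arrays have no sequencing depth, so their number limits the precision. The p-values measure the spread between hearts that the labels call biological replicates.

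Exact permutation tests over 70 splits (smallest two-sided p 0.0286) served for single array values. The members and lists (262 listed genes in 15 lists, 226 of them measured) were chosen with earlier results of these data known. Named were members with a called probe set, then in each role the smallest p up to 4 genes and the 3 highest means; of each other list, called genes up to 4, then the smallest p up to 2. Col1a1, Col6a5, Postn and Adamtsl5, the defining markers (Myh6, Tnnt2, Tnni3, S100a8) and the genes with disagreeing probe sets were named after their values were seen. Alternatives were other normalizations, filters, variance models, array weights, probe set rules, an offset of 16, covariates, a replicate block and each heart left out, 22 in all, of which 2 were chosen after seeing the data. On simulated data for this comparison over 31042 probe sets with 200 changed, 95 of 100 2-fold changes and 74 of 100 1.5-fold changes were recovered, with 8 false calls. The simulated noise was drawn independently for each probe set, so it held no deviation shared by many genes of a heart. The changed probe sets were drawn from all probe sets. These rates therefore need not hold for the matrix genes. Plots used matplotlib 3.10.9 under Python 3.11.15.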

Additional observations from a re-analysis of the deposited data

Results flagged for a closer look

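A single heart lay far from the other 3 of its group, past Dixon's 95% limit for 4 values, in 8 of 102 groups of named members. Chance alone flags about 1 in 20 of independent groups. These groups come from the same 8 hearts and many genes were named by small p, so the count cannot be set against that rate. Doxorubicin heart 4 was the high one for 5 genes, at 9.03 log2 for Bgn (next highest 8.22), 9.26 for Col14a1 (8.75), 9.39 for Col1a1 (8.67), 12.3 for Col3a1 (11.85) and 9.83 for Col4a5 (9.22). Control heart 1 was the low one for the laminin genes Lamb1, at 9.23 log2 (next lowest 9.66), and Lamc1, at 10.1 (10.53). Doxorubicin heart 3 was the low one for Adamts4, at 6.08 log2 (next lowest 7.20). The atrial markers were highest in doxorubicin heart 4 (11.74 log2) and lowest in control heart 1 (7.32 log2), as were the summed fibroblast markers (18013 and 12806), and their part in these values was not tested.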

How the results depend on the processing

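Over 22 alternatives, the 49 named members gave 1076 values, of which 993 kept their direction and their side of the threshold, 28 lost a call, 7 gained one and 48 changed sign; the sign changes fell on 18 members, none of them called. Matrix genes called higher numbered 2 as reported, 3 with arrays centred on the median, 1 with repeated quantile normalization, log2(value + 16), the replicate block, the 3′ to 5′ covariate and the atrial covariate, 0 with the mean of a gene's probe sets, the hybridization control covariate, and doxorubicin heart 4 and control heart 1 both left out, and 0 to 2 without 1 heart. Those called lower numbered 1 as reported, 0 with the hybridization control covariate, 2 with those 2 hearts left out (Timp3 added) or the atrial covariate (Col8a2 added, -0.48, limma adjusted p = 0.0192), and 1 to 1 without 1 heart. The median difference of the 99 genes was 0.0025 to 0.0536 without 1 heart and -0.0211 without those 2 hearts. All genes called higher numbered 186 with array weights, 60 with the replicate block and 3 with the hybridization control covariate, against 114, and moved by over 1.5 times without any 1 heart other than control heart 1; those called lower fell to 204 without doxorubicin heart 1 and 57 with the hybridization control covariate, against 308. The cause was not tested. Those 2 hearts were picked as the highest of the doxorubicin and the lowest of the control hearts in many matrix genes, so leaving them out lowers such differences by construction.

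With the replicate number as a block, Ogn had a limma adjusted p of 0.0298, Adamts9 of 0.0096 and Sparc of 0.0610. Same-numbered hearts correlated at 0.06, -0.04, -0.03 and -0.18 in their deviations from the group means. No heart correlated best with its own number. Whether same-numbered hearts shared a day or batch is not given in the labels and cannot be told from these correlations.

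Sign changes were as follows, all in differences that were not called. With the hybridization control covariate, Bgn was 0.54, Fmod 0.43, Mmp14 0.038, Mmp15 -0.039, Timp1 0.096, Postn 0.72, Sox10 0.037 and Wt1 0.11. Without doxorubicin heart 4 and control heart 1, Col14a1 was -0.12, Col1a2 -0.074, Col4a5 -0.25, Col5a2 -0.13, Dcn -0.071, Fbn1 -0.12, Fn1 -0.26, Lum -0.29, Mmp2 -0.11, Col1a1 -0.13, Mbp -0.050, Myl4 -0.23 and Myl7 -0.65. With the atrial covariate, Col4a5 was -0.056, Dcn -0.0080, Fn1 -0.045, Lum -0.13 and Mmp2 -0.041. With array weights Lamb2 was -0.0033 and Lum -0.0092, with repeated quantile normalization Lamb2 was -0.0027, and with the mean of its probe sets Mmp2 was -0.0027. Without 1 heart, the ranges were -0.30 to 0.19 for Bgn, -0.038 to 0.037 for Lamb2, -0.82 to 0.29 for Postn, -0.090 to 0.23 for Col4a5, -0.15 to 0.15 for Lum, -0.033 to 0.18 for Mmp2, -0.028 to 0.17 for Mbp, -0.043 to 0.27 for Col5a2, -0.025 to 0.13 for Dcn, -0.018 to 0.52 for Fn1, -0.0058 to 0.14 for Lamc1 and -0.20 to 0.037 for Mmp14.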
